A study of Mus musculus with 6 samples.

Results

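Granins and the enzymes that cut prohormones were followed on mouse arrays after the repressor REST was targeted in cultured embryonic brain cells. The genes were taken by name, as every probe set whose platform annotation names exactly 1 of Chga, Chgb, Scg2, Scg3, Scg5, Vgf, Pcsk1, Pcsk2, Pcsk1n and Resp18. This gave 9 probe sets, 1 for each of 9 genes, among the 45037 probe sets tested, and Pcsk2 was not analysed here. A probe set is a set of short probes designed against one transcript. The values are log2 signals, so that a difference of 1 is a doubling.

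The study compared 2 groups of 3 arrays. The cells were dissociated from mouse brains at stage E12.5, grown to confluence on coated dishes, split, and exposed overnight to a lentivirus that expresses a short hairpin RNA (shRNA). The REST shRNA group received a hairpin against REST and the control shRNA group a control hairpin, and RNA of both was taken 6 days later. The labels give no mouse strain and no hairpin sequence, call the cells NSP, and do not say whether the arrays of a group stand for separate embryos or cultures, so the spread behind each p-value is that between these arrays and may be technical. Titles number the arrays of each group from 1 to 3.

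Granins are acidic proteins of the regulated secretory pathway. They aggregate in the trans-Golgi network, help to form dense core vesicles, and are themselves cut into peptides. Prohormone convertases cut precursors at pairs of basic residues inside these vesicles, carboxypeptidase E trims the ends, and small partner proteins hold each convertase in check. REST binds an element called RE1 and silences many neuronal genes outside neurons, several granin genes among them.

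The stretch before the transcription start of 3 granin genes is shown first, because these are genes that read higher with REST shRNA on every array and because the granin family is known for a cyclic AMP response element (CRE) near its start. The sequences are from RefSeq on build GRCm38.p6, 250 bases up to the base before the annotated start, 5′ to 3′ on the gene's strand. Capitals mark the core TGACG on either strand, and the full CRE where it reads TGACGTCA.
Chga, chr12:102554691-102554940, plus strand: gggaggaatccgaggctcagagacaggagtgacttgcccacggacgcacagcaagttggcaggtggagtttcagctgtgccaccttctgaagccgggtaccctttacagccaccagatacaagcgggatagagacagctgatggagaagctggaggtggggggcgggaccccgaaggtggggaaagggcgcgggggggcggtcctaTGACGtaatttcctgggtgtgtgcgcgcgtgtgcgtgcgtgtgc
Chgb, chr2:132781392-132781641, plus strand: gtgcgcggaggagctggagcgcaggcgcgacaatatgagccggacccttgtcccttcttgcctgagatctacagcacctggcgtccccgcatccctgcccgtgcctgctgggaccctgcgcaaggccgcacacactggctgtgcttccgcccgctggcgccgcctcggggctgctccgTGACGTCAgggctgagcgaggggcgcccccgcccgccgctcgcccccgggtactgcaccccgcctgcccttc
Scg2, chr1:79440027-79440276, minus strand: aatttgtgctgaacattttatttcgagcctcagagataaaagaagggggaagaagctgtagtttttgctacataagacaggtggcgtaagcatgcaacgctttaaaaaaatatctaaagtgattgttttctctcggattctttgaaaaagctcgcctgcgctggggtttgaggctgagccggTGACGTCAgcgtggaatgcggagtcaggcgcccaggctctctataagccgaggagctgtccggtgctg
The full CRE lay at bases -72 to -65 of Chgb and at -68 to -61 of Scg2, counted from -1 at the last base before the start, and the core alone at -44 to -40 of Chga. Scg3 and Pcsk1 are shown as short stretches around their motif, because the table takes a start for them that lies inside the annotated gene, 1903 bases from the first base of Scg3 and 437 from that of Pcsk1. A second core in the Pcsk1 window, at -50 to -46, lies outside the stretch shown. The other 7 windows end just before the first base of the gene, and no window at the upstream start of Scg3 or Pcsk1 was searched.
Scg3, chr9:75684076-75684092, minus strand: ggtcgcTGACGccatcc
Pcsk1, chr13:75089773-75089792, plus strand: tagatcTGACGTCAagagat
Promoters of 9 of the 10 genes matched, all but that of Vgf. The full CRE was found in 3 of the 9 (Chgb, Scg2 and Pcsk1), against 1.55% of 32851 RefSeq promoters of the same length. The core, which every full CRE contains, was found in 7 of the 9, in all but Pcsk1n and Resp18, against 17.8% of promoters. Resp18, which read higher with REST shRNA, is one of the genes whose window lacks both motifs. The RE1 consensus, searched by its letters on both strands, had at least 6 mismatches among its 19 fixed letters in all 9 windows, and 1.13% of all promoters held it with at most 5. These letters are not in these windows, which says nothing of sites elsewhere in the genes.

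The target and the arrays were checked first. All 4 probe sets of Rest read lower on each of the 3 REST shRNA arrays than on any control array. The brightest read 8.63, 7.70 and 8.20 on REST shRNA arrays 1, 2 and 3, against 8.92, 8.75 and 8.90 on control arrays 1, 2 and 3, and the 4 probe sets stood between 57.3% and 71.5% of control. None passed the adjusted threshold in the limma fit over all probe sets (adjusted p = 1.00, rounded). Neural progenitor markers were present, with 9 of 9 above the highest of 27 bacterial control probe sets (3.24), which served as a background reference. One array stood apart: on REST shRNA array 2 the astrocyte markers averaged 8.08, against 10.3 on both other REST shRNA arrays and 9.78 to 10.3 on the control arrays. The differences of the members and the counts of the related gene lists are given below without that array too. Cell type markers, ranks in the table and profile correlations are given only with it. The arrays numbered 3 stood low in dividing cell markers in both groups, at 5.07 in REST shRNA and 5.34 in control, against 7.38 and 9.13 on the other REST shRNA arrays and 8.24 and 8.31 on the other control arrays.

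The granin genes Chga, Chgb, Scg2 and Scg3 and the luminal protein gene Resp18 read higher with REST shRNA on every array, while the granin-like Vgf was uneven between arrays. The convertase partners Scg5 and Pcsk1n differed by less than the spread of the arrays, and the convertase gene Pcsk1 was not measured above background. The difference was positive for all 9 genes, and its median was 1.21, against 0.01 over all probe sets, of which 52.6% were positive. No probe set of the table passed an adjusted p of 0.05 in limma, so no member was called, and 692 probe sets were higher and 868 lower at an unadjusted p under 0.05. The unadjusted threshold was passed by 5 of the 9 members, Chga, Chgb, Scg2, Scg3 and Resp18, all higher, against 1.54% of all probe sets that were higher, and by 0 members in the lower direction, against 1.93%. The same 5 had groups that did not overlap, against 4.35% of all probe sets higher without overlap. Lack of overlap already means reading higher in each of replicate numbers 1, 2 and 3. Only these 5 members did so, against 12.2% of all probe sets. The members were chosen with earlier results of these data known, so these shares are a description only. In bulk RNA, more cells of a type and more RNA per cell cannot be told apart.

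**Figure D1:**
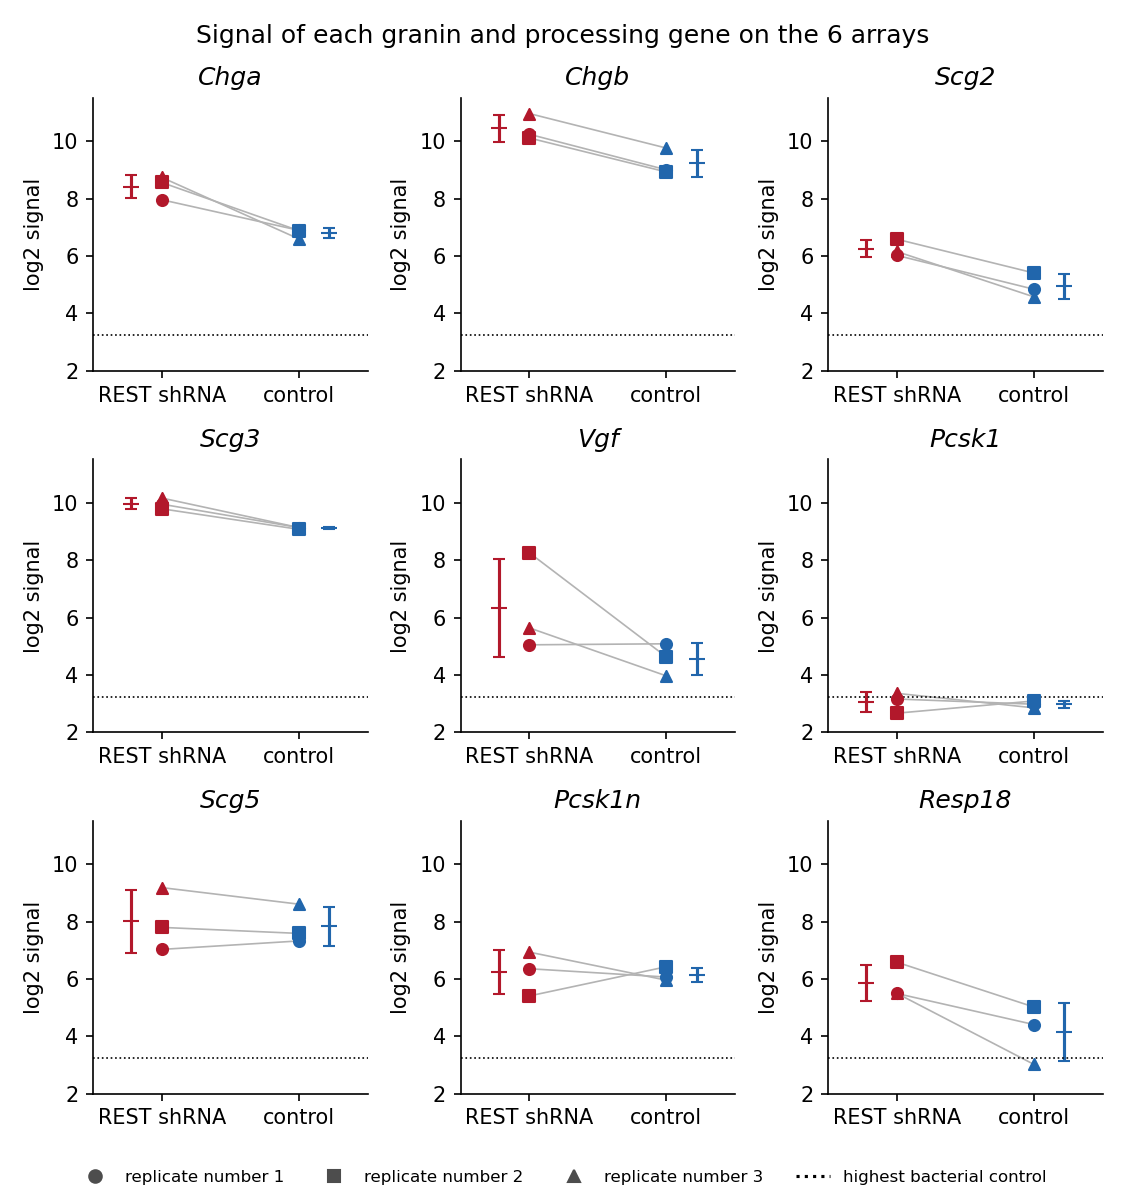
Log2 signal of the 9 genes on each array, 1 panel per gene, with REST shRNA on the left and control shRNA on the right. Marker shape gives the replicate number, grey lines join arrays of the same number, bars give the mean and SD of 3 arrays, and the dotted line is the highest bacterial control at 3.24. Chga, Chgb, Scg2, Scg3 and Resp18 show no overlap between the groups, and Pcsk1 lies along the dotted line.

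Chga encodes chromogranin A, the founding granin and the precursor of vasostatin and catestatin. It read 7.96, 8.56 and 8.74 on REST shRNA arrays 1, 2 and 3, against 6.89, 6.88 and 6.59 on the control arrays. The control arrays lay close together and the lowest REST shRNA array was above all of them. The means were 8.42 ± 0.41 in REST shRNA and 6.79 ± 0.17 in control (SD, n = 3 each), 3.09-fold higher (95% CI 2.10 to 4.56), with rank 9 of 45037 by p in limma (adjusted p = 0.922). An exact two-sided permutation test gave 0.1, the smallest value that 3 against 3 arrays allow.

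Chgb encodes chromogranin B, a sulphated granin that is released together with chromogranin A. It read 10.24, 10.11 and 10.96 on the REST shRNA arrays, against 9.00, 8.92 and 9.76 on the control arrays. In both groups array 3 was the highest, and the groups did not overlap. The log2 difference was 1.21 ± 0.32 (SE), 2.31-fold, and its 3 pairwise values were nearly equal, at 1.24, 1.19 and 1.20, with an SD of 0.03.

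Scg2 encodes secretogranin II, the precursor of the peptide secretoneurin. It read 6.02, 6.59 and 6.16 on the REST shRNA arrays, against 4.84, 5.41 and 4.58 on the control arrays. All REST shRNA arrays were above all control arrays, and array 2 was the highest of each group. The log2 difference was 1.31 ± 0.26 (SE), 2.48-fold (95% CI 1.61 to 3.83).

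Scg3 encodes secretogranin III, which tethers chromogranin A to the cholesterol-rich vesicle membrane. It read 9.95, 9.79 and 10.16 on the REST shRNA arrays, against 9.13, 9.07 and 9.13 on the control arrays. It had the narrowest control group of the 9 genes, with an SD of 0.04, and the smallest difference of the 5 genes without overlap, 0.85 ± 0.16 (SE, log2) or 1.81-fold (95% CI 1.39 to 2.35).

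Vgf encodes a precursor of neuropeptides that neurotrophins induce in neurons. It read 5.05, 8.26 and 5.64 on the REST shRNA arrays, against 5.09, 4.63 and 3.97 on the control arrays. The value on REST shRNA array 2 stood far above the other 5, and array 1 of REST shRNA lay just below array 1 of control, so the groups overlapped. Its difference of 1.76 ± 0.80 (SE, log2) was the largest of the 9 and the least certain, with a 95% interval of -0.15 to 3.66. Without REST shRNA array 2 the difference was 0.79, and in neither fit did it pass the unadjusted limma threshold. In the limma fit with a replicate block the unadjusted p was 0.0334 (adjusted p = 0.998), and 6 of the 9 members then passed the unadjusted threshold higher, against 1.87% of all probe sets.

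Resp18 encodes a small luminal protein of the endocrine secretory pathway, related to the luminal part of the vesicle protein Ptprn. It read 5.50, 6.59 and 5.50 on the REST shRNA arrays, against 4.41, 5.03 and 3.03 on the control arrays. The groups did not overlap, and the lowest control array was below the bacterial reference, where differences are least certain. The difference was 1.71 ± 0.54 (SE, log2), 3.26-fold (95% CI 1.33 to 7.99). Without control array 3, the one below the reference, it was 1.14.

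Pcsk1 encodes prohormone convertase 1/3, the enzyme that makes the first cuts in many prohormones. It read 3.16, 2.67 and 3.36 on the REST shRNA arrays, against 2.98, 3.09 and 2.86 on the control arrays. Only REST shRNA array 3 exceeded the bacterial reference, so the transcript was not measured above background. The difference was 0.09 (95% CI -0.42 to 0.59, log2).

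Scg5 encodes 7B2, which helps the convertase encoded by Pcsk2 to mature and then inhibits it. It read 7.03, 7.80 and 9.18 on the REST shRNA arrays, against 7.32, 7.59 and 8.60 on the control arrays. The values followed the replicate number more than the group, with array 3 the highest and array 1 the lowest in both. The difference was 0.16 (95% CI -1.21 to 1.54, log2) in the fit with only the group. That interval includes the size seen for Chgb or Scg3, but it counts the variation between replicate numbers as spread. In the limma fit with a replicate block the difference was 0.16 ± 0.23 (SE, log2), against an SE of 0.58 without the block.

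Pcsk1n encodes proSAAS, an inhibitor of prohormone convertase 1/3. It read 6.36, 5.41 and 6.94 on the REST shRNA arrays, against 6.07, 6.43 and 5.96 on the control arrays. REST shRNA array 2 was the lowest of all 6 and array 3 the highest, so the REST shRNA arrays enclosed the control arrays. The difference was 0.08 (95% CI -0.82 to 0.99, log2), and 0.50 without REST shRNA array 2, with an unadjusted limma p of 0.0894. Pcsk1n and Vgf were thus lowest and highest on the same array.

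Taken by replicate number, 7, 7 and 9 of the 9 genes read higher in REST shRNA in numbers 1, 2 and 3, with median differences of 0.82, 1.18 and 1.20, against medians over all probe sets of 0.00, 0.00 and 0.03. More than 2-fold higher were 4 members in number 1, against 1.15% of all probe sets, 5 in number 2, against 3.28%, and 6 in number 3, against 2.27%. Chga differed by 1.06, 1.68 and 2.14, Scg2 by 1.18, 1.18 and 1.58, Scg3 by 0.82, 0.72 and 1.03, and Resp18 by 1.08, 1.56 and 2.48. For these 4 genes number 3 gave the largest difference, whereas Chgb was even. In Resp18 that value rests on control array 3, which was below the bacterial reference. Vgf differed by -0.04, 3.63 and 1.67, Pcsk1n by 0.29, -1.02 and 0.98, Pcsk1 by 0.18, -0.43 and 0.51, and Scg5 by -0.29, 0.21 and 0.58, so the sign of these 4 was not the same in every number.

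**Figure D2:**
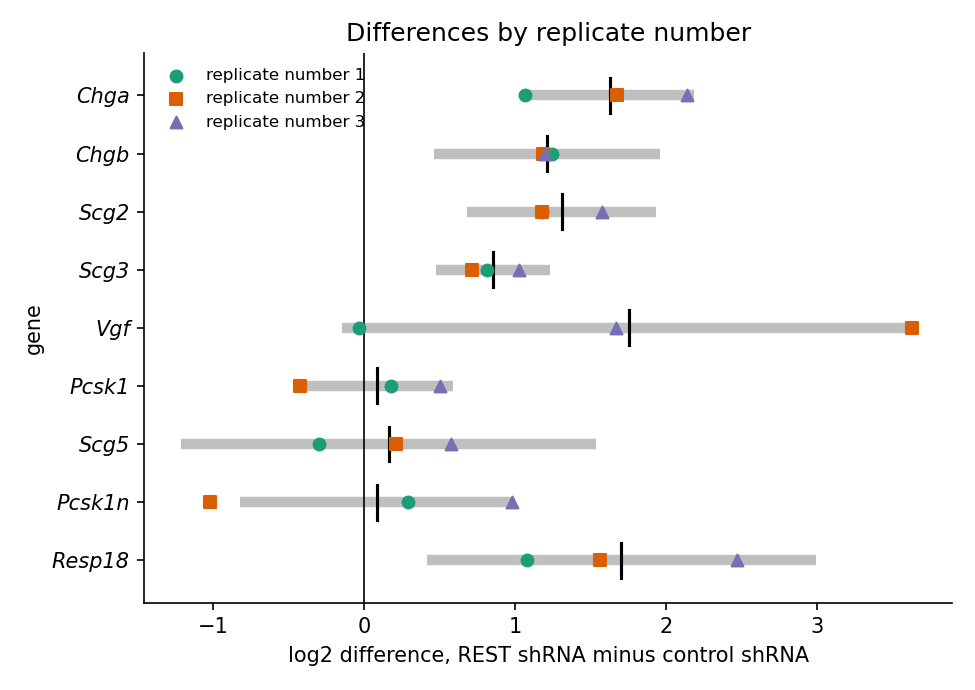
Log2 difference of each gene, REST shRNA minus control shRNA, on the horizontal axis. Coloured markers are the 3 replicate numbers, the black tick is the mean and the grey bar its 95% interval from limma. The 5 genes without overlap have every marker right of 0, and Vgf spans -0.04 to 3.63.

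Without REST shRNA array 2, the array that stood apart, the differences were 1.56 for Chga, 1.38 for Chgb, 1.15 for Scg2, 0.94 for Scg3 and 1.34 for Resp18. All 5 still passed the unadjusted threshold in limma, with Resp18 closest to it at 0.0494, and the lowest adjusted p among them was 0.716. The differences of Pcsk1 and Scg5 were 0.28 and 0.27, and that of the brightest Rest probe set was -0.44. Leaving out both arrays numbered 3, which were low in dividing cell markers, left 5 members past the unadjusted threshold.

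Within the whole table the 5 genes stood near the upper end. Of the 45037 probe sets, 0.0555% had a larger positive difference than Chga, 0.0400% than Resp18, 0.147% than Scg2, 0.200% than Chgb and 0.622% than Scg3. Vgf was exceeded by 0.0311%. For Scg5, Pcsk1 and Pcsk1n the shares were 24.0%, 36.4% and 36.9%. The spread within groups was wider for these genes than for most, with a median residual SD of 0.46, against 0.27 over all probe sets.

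**Figure D3:**
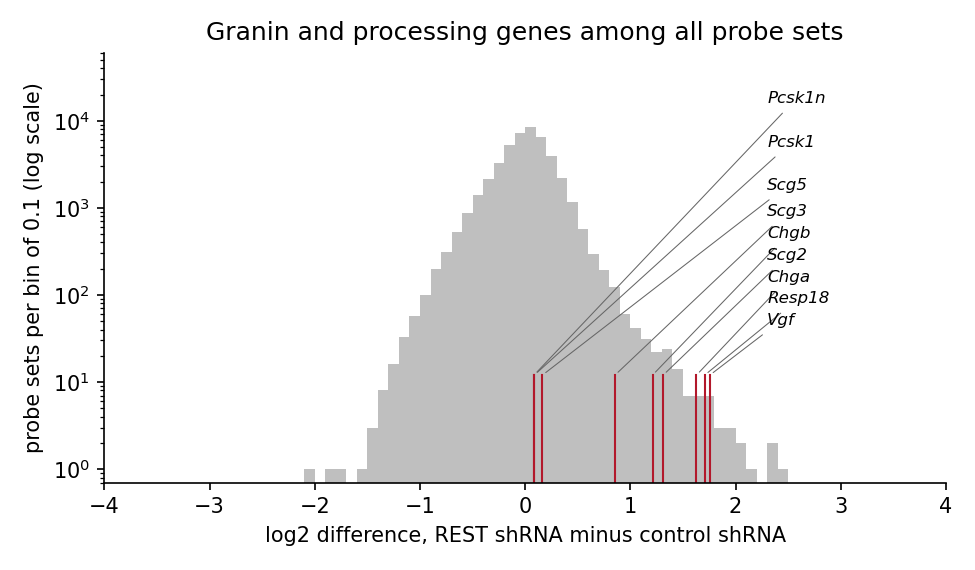
Histogram of the log2 difference, REST shRNA minus control shRNA, of all 45037 probe sets in bins of 0.1, with the count on a log axis. Red lines mark the 9 genes. Pcsk1n, Pcsk1 and Scg5 lie in the bulk of the distribution and the other 6 lie in its right tail.

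Other genes of the pathway were described by 3 lists, each gene by its brightest probe set. Other processing enzymes of the secretory pathway were centred near 0. Of 15 measured, 4 had a positive difference, against 57.2% of all genes. The median was -0.07, against 0.04 over all 18193 genes. Their mean difference was 0.05, -0.54 and 0.03 in numbers 1, 2 and 3. At the unadjusted threshold 0 were higher, against 1.69% of all genes, and 1 was lower, against 1.04%. That gene was Ece1, an endothelin converting enzyme, at -0.82 ± 0.28 (SE, log2), and its other 2 probe sets also read lower, at -0.68 and -0.65. Next by p were Cpm, a membrane carboxypeptidase, at -0.92 ± 0.44, with another probe set at 0.03, and Ece2, a relative of Ece1, at 0.42 ± 0.42. Cpe, which encodes carboxypeptidase E, read 12.18, 10.55 and 12.25 on the REST shRNA arrays, against 11.89, 11.84 and 12.15 on the control arrays. Array 2 of REST shRNA, the array low in astrocyte markers, was the only REST shRNA array below all control arrays, and the part of those cells in it was not tested. Leaving out 1 array at a time gave 0 to 2 enzymes lower, with 0 without control array 1 or 2 or REST shRNA array 1 or 2 and 2 without REST shRNA array 3, and 1 enzyme higher without REST shRNA array 1. With the replicate block 2 were lower, against 1.36% of all genes.

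Genes of the dense core vesicle membrane, its biogenesis and its release were mixed. Of 30 measured, 18 were positive, with a median of 0.12. Over all genes 57.2% were positive, so the share of positive genes was near that of all genes. At the unadjusted threshold 4 were higher, against 1.69% of all genes, and 1 was lower, against 1.04%. The 4 were Ptprn2, Cadps, Ica1 and Cadps2, the last 2 named after their values were seen. Ptprn2, a transmembrane protein of the vesicle, read 6.42, 6.51 and 7.42 on the REST shRNA arrays, against 5.77, 5.87 and 5.52 on the control arrays, with a difference of 1.06 ± 0.29 (SE, log2), and its second probe set differed by 0.63. Cadps, which primes dense core vesicles for release, read 7.34, 6.67 and 6.74 on the REST shRNA arrays, against 6.08, 5.77 and 6.31 on the control arrays, with a difference of 0.86 ± 0.24. Its relative Cadps2 differed by 0.60 ± 0.23 and Ica1, a vesicle trafficking protein, by 0.84 ± 0.28. The second probe set of Ica1 differed by 0.45 ± 0.40, with overlapping groups. Syt17, a synaptotagmin relative, was the lower one, at -1.17 ± 0.31, and its second probe set differed by -0.80. Ptprn, the relative of Ptprn2 to which Resp18 is related, differed by 0.88 ± 0.51 with overlapping groups. Its differences in numbers 1, 2 and 3 were -0.002, 0.25 and 2.39. Control array 3 read 3.58, against 5.43 and 5.44 on control arrays 1 and 2. Of the list, 2 genes were higher when array 1 or 2 of control, or array 3 of REST shRNA, was left out, and 3 were lower without control array 1 and 2 without any 1 of the REST shRNA arrays. Without REST shRNA array 2 the counts were 4 higher and 2 lower.

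The precursors that granin-bearing vesicles usually carry had mean levels of 3.84 to 3.99 on the REST shRNA arrays and 3.75 to 3.84 on the control arrays. Of 38 measured genes for neuropeptides and peptide hormones, 23 had a mean above the bacterial reference. Of all 18193 genes, read the same way, 13823 genes other than the members did. The median difference was 0.14, and 28 were positive, against 57.2% of all genes. At the unadjusted threshold 2 were higher, against 1.69% of all genes, and 0 were lower, against 1.04%. The 2 were Tac2, the neurokinin B precursor, at 0.43 ± 0.16 (SE, log2) but below the reference on all arrays, and Nucb2, the nesfatin precursor, at 0.49 ± 0.20. Pomc, the precursor of corticotropin, came next, at 0.44 ± 0.20, and also stands in the pituitary list below. Npy and Sst, widespread neuropeptides of the forebrain, differed by 0.41 ± 0.37 and 0.23 ± 0.18. Without REST shRNA array 2 the count was 6 higher and 1 lower, and without any other single array it was 1 higher. With the replicate block it was 0 higher and 0 lower, against 2.18% and 1.36% of all genes.

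**Figure D4:**
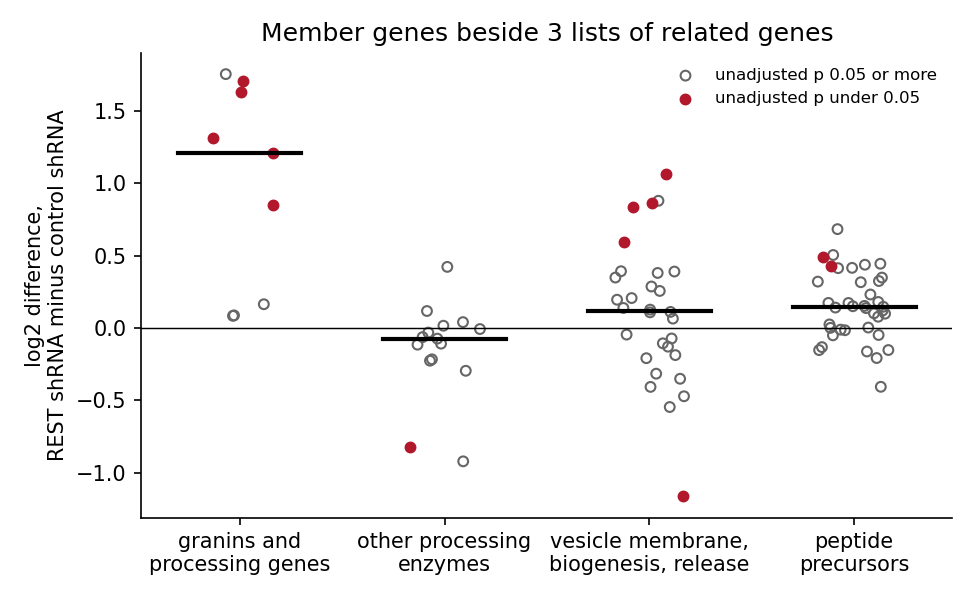
Log2 difference, REST shRNA minus control shRNA, of each gene in the member group and in 3 related lists, with black bars at the list medians of 1.21, -0.07, 0.12 and 0.14. Filled points passed an unadjusted limma p under 0.05.

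Markers of cell types were followed beside the members, since granins are also high in neurons and endocrine cells. Some neuronal markers read higher on the same arrays as the granins. Of 12 neuronal markers, all above background, 9 were positive, against 57.2% of all genes, with a median of 0.66. The unadjusted threshold was passed by 5, all higher, against 1.69% of all genes: Snap25, Gap43, Nefl, Rbfox3 and Syp. In the limma fit with the replicate block Stmn2 and Elavl3 passed it too, which makes 7 of 12, against 2.18% of all genes. Their mean level was 8.29, 8.22 and 8.74 on REST shRNA arrays 1, 2 and 3, against 7.45, 7.61 and 7.89 on the control arrays. Their mean difference was 0.84, 0.61 and 0.86 in numbers 1, 2 and 3. Dcx, Map2 and Elavl4, also neuronal, differed by -0.20 ± 0.53, -0.10 ± 0.18 and -0.21 ± 0.20 (SE, log2). The part of neuron number in the granin differences was not tested.

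Endocrine markers were mostly near background. Of 9 pituitary markers 4 were above the reference, 0 passed the unadjusted threshold, and their mean level ran from 3.19 to 3.44 on the REST shRNA arrays, against 3.26 to 3.28 on the control arrays. Prl, Tshb and Fshb lay below the reference on all 6 arrays. Of 5 sympathoadrenal markers 3 were above it, with mean levels of 3.24 to 3.69 on the REST shRNA arrays and 3.38 to 3.42 on the control arrays, and Th lay below it on all 6 arrays. Oligodendrocyte lineage markers differed by 0.34, -0.53 and 0.57 in numbers 1, 2 and 3, and astrocyte markers by 0.01, -1.70 and 0.15. Progenitor markers had 2 of 9 positive and a median of -0.17.

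Microglial markers had a median of 0.11 with all 8 positive and 2 above the reference, and Aif1, a macrophage protein, passed the unadjusted threshold in the higher direction. It is not one of those 2, with 3.99, 2.83 and 3.46 on the REST shRNA arrays, against 2.22, 2.50 and 2.48 on the control arrays, so only 2 REST shRNA arrays were above the reference and its difference has no firm size. Endothelial markers and those of fibroblasts and mural cells had medians of -0.03 and 0.24, with none past the unadjusted threshold. Dividing cell markers differed by -0.86, 0.82 and -0.27 in numbers 1, 2 and 3. For the members, what these markers contribute was not tested.

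**Figure D5:**
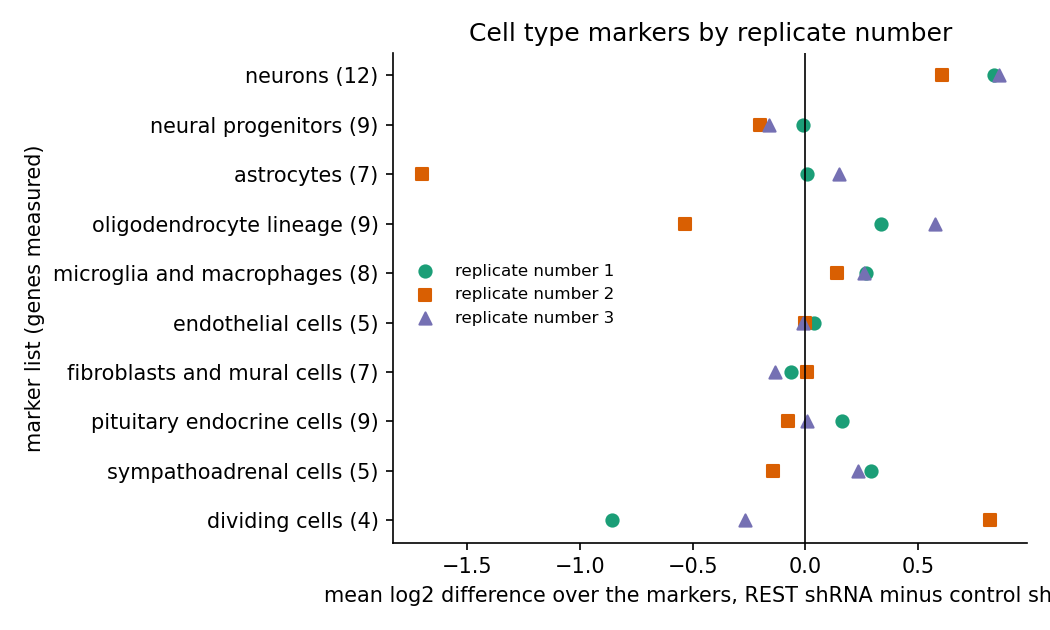
Mean log2 difference of 10 lists of cell type markers, REST shRNA minus control shRNA, for each replicate number. Neuronal markers lie right of 0 in all 3 numbers, and astrocyte markers lie at -1.70 in number 2 alone.

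The mean centred profile of the 8 members above background was set against 13823 other genes above background over the 6 arrays. The closest by Pearson correlation were Marchf4 (r = 0.987), A230070E04Rik (0.985), Lysmd2 (0.984), Lipt1 (0.983) and Crmp1 (0.982). In all, 35 genes exceeded 0.95, and with 6 arrays such values are a description of likeness only. Marchf4, a membrane ubiquitin ligase, read 4.89, 5.73 and 5.45 on the REST shRNA arrays, against 4.19, 4.24 and 4.10 on the control arrays. Crmp1, a collapsin response mediator of neurons, read 9.47, 9.68 and 9.94 on the REST shRNA arrays, against 8.84, 8.96 and 8.69 on the control arrays.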

How the data were processed

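RNA of 6 samples was measured on 1-colour Affymetrix mouse arrays; per the labels' protocols, RNA was extracted with Trizol and cDNA labelled with biotin. The authors deposited a table of log2 signals per probe set, with values from 1.00 to 14.2. The unit was read from the values, and how background, probe summary and normalization were handled is not given in the sources used here. Arrays share nearly one distribution, so a change of total RNA per cell is not visible. Names come from the array's platform annotation, in which 34945 probe sets had 1 gene, 932 several and 9160 none listed. No symbol changed in a RefSeq table of GRCm38.p6. For lists, a gene was read by its probe set with the highest mean.

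limma 3.58.1 in R 4.3.3 (lmFit, eBayes) was fitted to 45037 probe sets, without 64 control probe sets, with only the group as a term and 4 residual degrees of freedom (2.9 prior), tested on both sides with Benjamini-Hochberg adjustment over all probe sets. Calls were made at an adjusted p of 0.05. The steps were tested on simulated data. Groups came from the titles. Deviations from group means correlated at 0.117, 0.282 and 0.402 for numbers 1, 2 and 3, so the numbers, given by the titles, were taken to pair the arrays, although for control array 1 the correlation with REST shRNA array 2 was larger (0.231). Named genes are Rest, all members, the 3 smallest p per pathway list, the 5 genes most alike and markers on which a count turns. Ica1, Cadps2, Cpe, Ptprn, Npy and Sst were named after their values were seen. The members and lists were chosen with earlier results of these data known. Alternatives were the replicate block, scalings, filters on dim probe sets, variance models, array weights, probe set choices and leaving out arrays. The 3 arrays per group limit the precision.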

Additional observations from a re-analysis of the deposited data

How the results depend on the processing

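Over 20 alternatives, 5 or 6 members passed the unadjusted limma threshold higher and 0 lower, and 0 probe sets of the table were called at an adjusted p under 0.05. Chga, Chgb, Scg2 and Scg3 passed the unadjusted threshold in all 20, and Resp18 in 19 (not without both arrays numbered 1). Their differences ran from 1.37 to 1.91, 0.95 to 1.48, 1.13 to 1.55, 0.76 to 0.94 and 1.14 to 2.14. Vgf ran from 0.79 to 2.65 and passed in 3, and array weights gave it 0.92. In the fit with a replicate block 6 members passed the unadjusted threshold higher, and no adjusted call differed. The brightest probe set of Rest ran from -0.91 to -0.44 and passed the unadjusted threshold in 13 of 20. Its other probe sets also stayed lower, and passed in 18, 15 and 10 of the 18 alternatives that held them.

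The small differences turned sign when single arrays were left out: Pcsk1 from -0.0612 (without REST shRNA array 3) to 0.28, Scg5 from -0.43 to 0.65 (-0.43 without REST shRNA array 3, -0.09 without control array 1) and Pcsk1n from -0.27 to 0.50 (-0.27 without REST shRNA array 3, -0.0127 without control array 3). Without both arrays numbered 3, Pcsk1 was -0.12, Scg5 -0.0424 and Pcsk1n -0.36, and without both numbered 1 Pcsk1n was -0.0194. The cause was not tested. Both filters on dim probe sets left Pcsk1 out.

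The list counts at the unadjusted threshold are small. Leaving out single arrays gave 0 to 1 processing enzymes higher and 0 to 2 lower, 2 to 6 vesicle genes higher and 1 to 3 lower, and 1 to 6 peptide precursors higher and 0 to 1 lower. Without both arrays numbered 1 the counts were 1 enzyme higher and 0 lower, 2 vesicle genes higher and 2 lower, and 1 precursor higher. Without both numbered 2 they were 0 enzymes and 0 vesicle genes lower, and without both numbered 3, 2 enzymes and 2 vesicle genes lower and 1 precursor higher. Without probe sets shared between transcripts they were 0 enzymes lower and 2 vesicle genes higher, and with array weights 2 vesicle genes lower. With the block they were 2 enzymes lower and 0 precursors higher. Either filter on dim probe sets left 0 precursors higher, and a variance trend 1. The probe sets at an unadjusted p under 0.05 over the table, 692 higher and 868 lower, became 1434 and 1346 when REST shRNA array 2 was left out, 1346 and 1367 when REST shRNA array 1 was, 324 and 513 when control array 1 was, and 450 higher when control array 2 was. Array weights gave 1318 higher and the milder filter on dim probe sets 452. Fits by gene, on 18193 genes, gave 323 higher and 195 lower, or 345 and 193 with probe sets averaged. Pcsk1 lay near the bacterial reference, so its difference has no firm size.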
